A study of Mus musculus with 6 samples.

Results

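Mucus-producing and ion-transporting cells line the airways, gut and glands, and single medullary thymic epithelial cells can take on their expression programmes. The genes described here are 35 markers of goblet, secretory and ionocyte cells, of 55385 genes counted. They were named by symbol with earlier results of these data known, though no measured value entered the rule, and each symbol matched 1 row of the table of the whole series. The list holds mucins, trefoil factors, granule and antimicrobial proteins, aquaporins, and the transcription factors, proton pump subunits, channels and transporters of ionocytes.

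The 6 mRNA libraries came from sorted mature medullary thymic epithelial cells (mTEChi) of mice aged 4 to 5 weeks. In 3 of them Trp53, the gene for the transcription factor p53, was conditionally deleted (cKO), and the other 3 came from P53-WT mice without Cre (WT). The labels name no Cre driver and do not say if separate mice gave the libraries, so the p-values reflect variation among libraries that could be technical in part. For each sample 75000 cells were sorted from thymus after magnetic enrichment for EpCAM, an epithelial surface protein.

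Goblet cells store gel-forming mucins in granules and release them with trefoil factors and lectins to make mucus. Club cells and gland cells secrete antimicrobial proteins such as lactoferrin and the BPI-fold proteins, and carry immunoglobulin A across the epithelium. Ionocytes are rare cells rich in V-ATPase proton pumps and anion channels that set the salt and acid content of the fluid. Thymic cells that resemble these types are called mimetic cells. In a bulk library, a lower level from fewer cells of a type cannot be told apart from less RNA per cell. Which of the sorted cells held the transcripts of these genes was not tested.

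Library totals lay between 46500807 and 50128045 counts in cKO and between 45457892 and 48564222 in WT. Trp53 had 386, 361 and 369 counts in cKO libraries and 5351, 4837 and 5314 in WT libraries, so every library matched its label (edgeR log2 fold change −3.81, SE 0.0999, with an adjusted p of 5.76e-10). All 11 markers of mTEChi were present in every library, with summed levels of 35311 to 36299 TPM in cKO and 34891 to 37280 TPM in WT. None passed the test; 3 had log2 fold changes above 0 and 8 below. Aire, the regulator of tissue antigens, had 495 to 705 TPM in cKO and 704 to 861 TPM in WT, and Cd80, a co-stimulatory ligand, had 114 to 161 TPM in cKO and 133 to 163 TPM in WT. In CPM, Aire had 822, 1160 and 1159 in cKO and 1417, 1301 and 1201 in WT, with no overlap (−0.32, adjusted p = 0.516). Fezf2, another regulator of tissue antigens, was the other marker with no overlap, at 402 to 408 CPM in cKO and 429.7 to 501 CPM in WT (−0.16, adjusted p = 0.612). At an unadjusted p under 0.05 were Aire and Epcam, which had 525 to 589 CPM in cKO and 458 to 526 CPM in WT (0.18, adjusted p = 0.582). Groups did not overlap in 18.2% of the 11 markers, beside 14.4% of all genes tested. An unadjusted p under 0.05 was likewise met by 18.2% of the markers, beside 8.51% of all genes tested. The part of these markers in the values below was not tested. TPM is a level per transcript length with the same sum in every library, so that genes can be set beside each other. CPM is a count scaled for library size by TMM, used here to compare libraries for 1 gene. A log2 fold change is always cKO over WT.

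None of the 35 members differed between cKO and WT past the threshold, which was an adjusted p of 0.05 in edgeR's quasi-likelihood test over 28543 genes. Over all genes tested, 17 passed, or 0.0596%, of which 7 were higher in cKO (0.0245%) and 10 lower (0.035%). The members nearest to the threshold were Cftr, the chloride channel gene, with higher levels in cKO (1.59-fold), and Muc2, the gel-forming mucin gene of the intestine, with lower levels in cKO (1.59-fold). At an unadjusted p under 0.05 there were 7 members, 5 with positive and 2 with negative log2 fold changes. Of all genes tested 8.51% met that value, 4.28% with positive and 4.23% with negative log2 fold changes. Limma-voom called no member at an adjusted p under 0.05, and DESeq2 called Cftr and Muc2, beside 0.887% of the genes it tested.

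All 35 members passed the filter on low counts, and the smallest count in any library was 15, for Ascl3. The median log2 fold change of the members was 0.05, beside a median of −0.0053 over all genes tested. It was above 0 in 23 members (65.7%), beside 49.0% of all genes tested. The lowest log2 fold change of a member was −0.67 and the highest was 0.88. In 5 members the cKO and WT libraries did not overlap in CPM, or 14.3% of the 35, which is close to the 14.4% of all genes tested. Of these, 3 were higher in cKO (Cftr, Atp6v1g3 and Agr2), beside 7.14% of all genes, and 2 were lower (Muc2 and Muc5ac), beside 7.28%.

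Sequence just upstream is shown for Cftr and Muc2 because they had the smallest p of the members and opposite directions. Both runs are the 250 bases before the RefSeq start on the plus strand of GRCm38.p6, chr6:18170437-18170686 for Cftr and chr7:141690090-141690339 for Muc2. Capitals mark matches to the motifs searched.
Cftr promoter: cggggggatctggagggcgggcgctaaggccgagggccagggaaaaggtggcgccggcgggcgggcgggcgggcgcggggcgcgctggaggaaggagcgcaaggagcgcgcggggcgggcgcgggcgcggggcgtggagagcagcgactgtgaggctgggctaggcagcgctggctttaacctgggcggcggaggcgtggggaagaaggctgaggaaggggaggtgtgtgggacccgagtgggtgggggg
Muc2 promoter: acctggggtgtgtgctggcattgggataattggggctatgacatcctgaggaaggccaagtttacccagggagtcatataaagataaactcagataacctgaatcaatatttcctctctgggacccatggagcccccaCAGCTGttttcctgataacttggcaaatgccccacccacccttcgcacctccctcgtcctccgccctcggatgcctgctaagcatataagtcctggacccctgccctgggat

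Motifs were searched on both strands of the same 250-base window: the forkhead core TGTTTAC, the E-box CAGCTG bound by many bHLH factors, and the paired core CATGNNNNNNCATG of a p53 site. In the table of 32851 promoters, 22 of the 35 members had an entry. The Cftr window, with 76.4% G and C, held none of these letters. Muc2, with 53.2% G and C, held 1 E-box at bases −112 to −107 from the start. An E-box was also present upstream of Fcgbp, and a forkhead core upstream of Atp6v1b1 at bases −98 to −92. Among all promoters 13.0% held the E-box, 3.17% the forkhead core and 0.490% the paired CATG core, which no member window held. A match is a description of letters and not a binding site.

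Levels spanned more than 3 orders of magnitude. Fcgbp, which encodes a large mucus protein of goblet cells that binds IgG Fc, had 1567, 1870 and 1403 TPM in cKO and 1658, 1548 and 1449 TPM in WT. It alone took 49.996% to 56.4% of the summed TPM of the 35 genes in cKO libraries and 53.1% to 59.1% in WT libraries, and ranked above 99.8% of tested genes by mean WT TPM. Its groups overlapped (log2 fold change 0.03, SE 0.0921, adjusted p = 0.961).

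**Figure D1:**
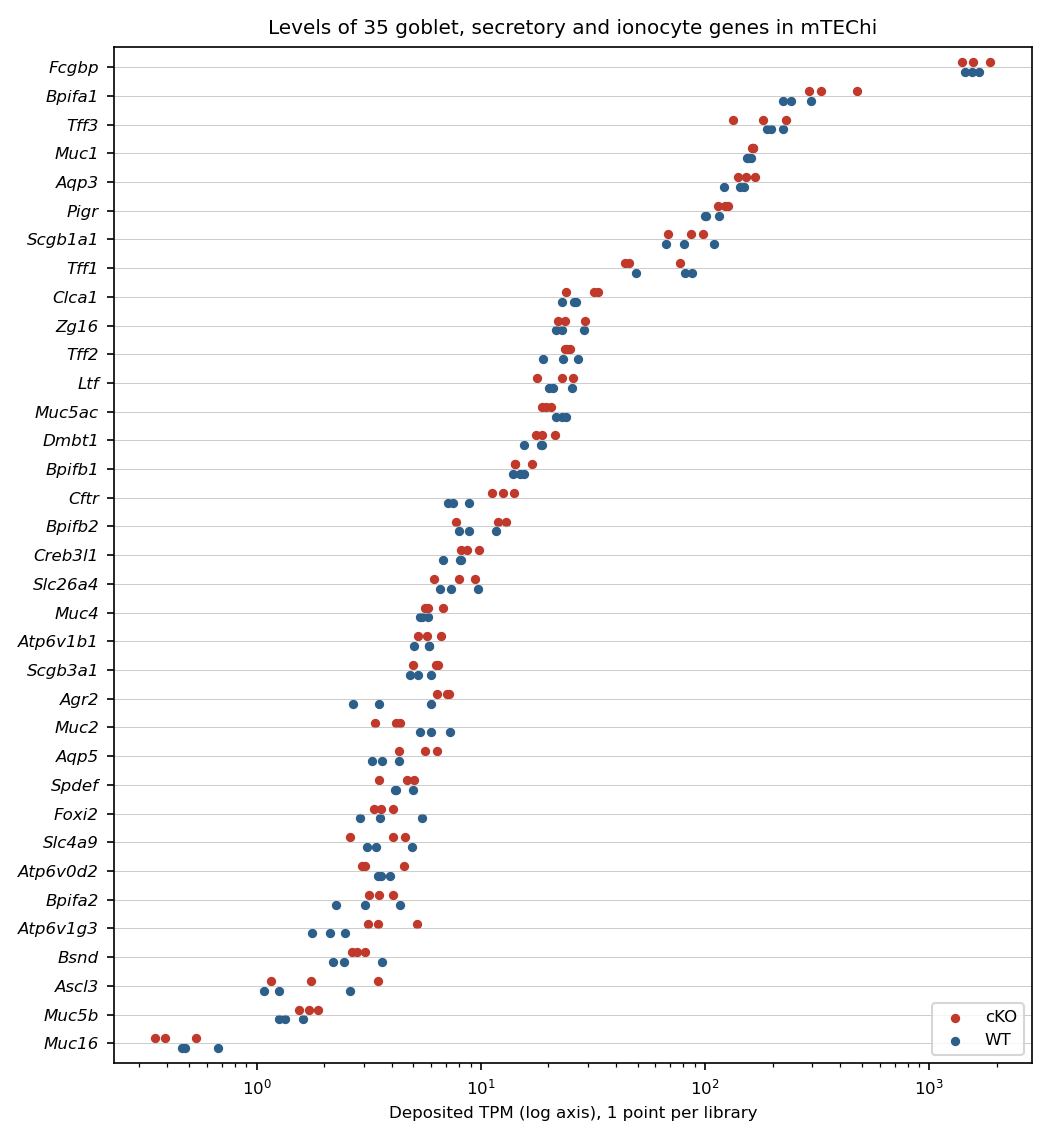
Deposited TPM of the 35 members on a log axis, 1 point per library, cKO in red above WT in blue, sorted by the mean of the 6 libraries. Fcgbp lies above 1000 TPM in every library and Muc16 below 1 TPM in every library, and the cKO and WT points of most genes lie within each other's range.

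After Fcgbp, 5 members had a mean between 100 and 1000 TPM over the 6 libraries: Bpifa1, Tff3, Muc1, Aqp3 and Pigr. A further 11 lay between 10 and 100 TPM and 17 between 1 and 10 TPM. Muc16, a very large membrane mucin, was the lowest, with 0.353, 0.390 and 0.535 TPM in cKO and 0.480, 0.466 and 0.670 TPM in WT. Within the order, Muc1, Aqp3 and Tff3 had overlapping ranges, as did Clca1, Zg16, Tff2 and Ltf. All ionocyte members but Cftr were below 10 TPM in every library.

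Gel-forming mucins, the polymers that give mucus its structure, had values in both directions. Muc2 (ENSMUSG00000025515, chromosome 7, 141690340 to 141754693 in mm10) had 12.9, 10.3 and 13.8 CPM in cKO libraries and 18.4, 17.4 and 23.2 CPM in WT libraries. All cKO values lay below all WT values, with means of 12.4 ± 1.82 and 19.7 ± 3.10 CPM (SD, n = 3 each), and the difference did not pass (edgeR adjusted p = 0.203, log2 fold change −0.67, SE 0.150). Muc5ac (141788972 to 141819231), a mucin of the stomach and airway surface, had 87.5, 90.7 and 98.9 CPM in cKO and 106.8, 105.7 and 115 CPM in WT. Again the groups did not overlap and the difference did not pass (−0.24, SE 0.0824, adjusted p = 0.434).

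Muc5b (141839070 to 141873084), the main gel-forming mucin of airway glands, lies next in the same cluster on chromosome 7. It had 12.2, 11.02 and 10.3 CPM in cKO and 8.60, 8.61 and 10.8 CPM in WT, so the groups overlapped (0.26, SE 0.146, adjusted p = 0.682). By TPM, which is per length, Muc5ac stood highest of these mucins at 18.8 to 20.7 TPM in cKO and 21.6 to 24.04 TPM in WT. Mucins hold long repeats, and reads with more than 1 alignment did not enter the counts.

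Membrane mucins form a glycan coat at the cell surface. Muc1 was the steadiest of the 35 genes, with 164, 162 and 163 TPM in cKO and 154, 155 and 160 TPM in WT. The TPM values of the groups did not overlap, whereas the CPM values did, with 167 ± 3.32 CPM in cKO and 163 ± 6.48 CPM in WT (log2 fold change 0.04, SE 0.0738, adjusted p = 0.942). Muc4, an ErbB2-binding mucin, had 5.65 to 6.80 TPM in cKO and 5.37 to 5.79 TPM in WT (0.11, adjusted p = 0.835), and 5.33% of its exon bases overlap Muc20. Muc16 had 4.04, 4.41 and 6.28 CPM in cKO and 5.44, 5.59 and 7.88 CPM in WT (−0.36, SE 0.214, adjusted p = 0.6997), with overlapping groups.

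Trefoil factors are small secreted peptides that protect and repair mucosa, Tff1 and Tff2 mainly in the stomach and Tff3 in intestinal goblet cells. They lie side by side on chromosome 17, and their spread within groups was wide. Tff1 (31161395 to 31165277) had 13.9, 13.2 and 24.1 CPM in cKO and 14.8, 25.9 and 27.5 CPM in WT. Libraries 1 and 2 of cKO and library 1 of WT were low and the other libraries high, so the groups overlapped (log2 fold change −0.41, SE 0.310, adjusted p = 0.785). The noncoding gene Gm15318 covers 31.4% of the exon bases of Tff1, and strand was ignored in counting. Gm15318 had a mean of 676 counts, against 609 to 1207 counts of Tff1 in cKO and 683 to 1345 in WT. How many reads were counted for both genes was not tested.

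Tff3 (31125306 to 31129646) had 182, 133 and 229 TPM in cKO and 189, 197 and 223 TPM in WT. Its lowest and highest libraries were both cKO (log2 fold change −0.18, SE 0.182, adjusted p = 0.846). Tff2 (31141049 to 31144282) was lower, at 23.8 to 25.0 TPM in cKO and 18.99 to 26.99 TPM in WT (0.05, adjusted p = 0.968).

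Other goblet granule proteins showed no difference past the threshold. Clca1, a secreted protease of goblet cells, had 52.6, 53.9 and 40.4 CPM in cKO and 37.4, 45.6 and 43.8 CPM in WT. The groups overlapped through library 3 of cKO (log2 fold change 0.21, SE 0.122, adjusted p = 0.686). Zg16, a lectin of intestinal mucus, had 22.04 to 29.1 TPM in cKO and 21.6 to 28.7 TPM in WT (0.01, adjusted p = 0.996).

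Among the goblet regulators, Agr2 encodes a disulphide isomerase of the endoplasmic reticulum that is needed for Muc2 in the mouse intestine. Agr2 (ENSMUSG00000020581, chromosome 12, 35992907 to 36004087) had 3.98, 3.54 and 4.14 CPM in cKO and 1.496, 2.07 and 3.44 CPM in WT. The cKO libraries were close together and the WT libraries spread widely, with no overlap (means 3.89 ± 0.308 and 2.34 ± 0.997 CPM, log2 fold change 0.73, SE 0.274, adjusted p = 0.492). Without WT library 1 the log2 fold change was 0.50, and without WT library 3 it was 1.12. Spdef, an ETS factor that drives goblet cell differentiation, had 3.51 to 5.02 TPM in cKO and 4.14 to 4.99 TPM in WT (−0.03, adjusted p = 0.984). Creb3l1, a membrane-bound factor of secretory cells, had 8.16 to 9.81 TPM in cKO and 6.80 to 8.19 TPM in WT (0.18, adjusted p = 0.798).

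**Figure D2:**
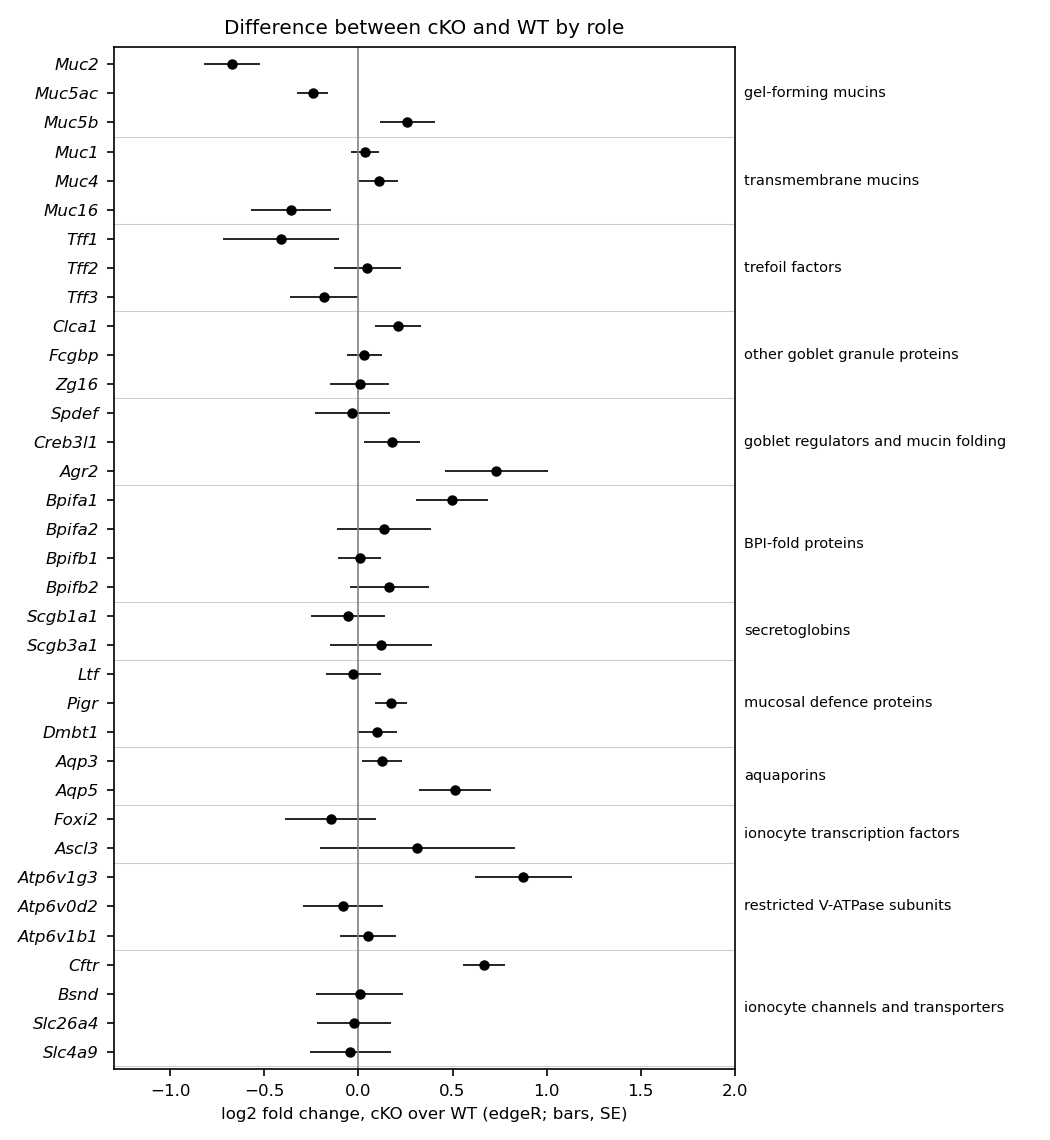
Log2 fold change of each member, cKO over WT, from edgeR, with bars of 1 SE, grouped by role. Atp6v1g3 (0.88), Agr2 (0.73) and Cftr (0.67) lie farthest to the right and Muc2 (−0.67) farthest to the left, and none of the 35 passed the threshold.

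BPI-fold proteins are lipid-binding antimicrobial proteins of airway and salivary secretions, and their genes lie in 1 cluster on chromosome 2. Bpifa1 (ENSMUSG00000027483, 154142880 to 154149219), abundant in airway fluid, had 220.1, 317 and 199.9 CPM in cKO and 161, 209 and 153 CPM in WT. The groups overlapped because WT library 2 lay above cKO library 3, with means of 246 ± 62.7 and 174 ± 30.3 CPM (log2 fold change 0.50, SE 0.192, adjusted p = 0.552). Without cKO library 2 the log2 fold change was 0.27. Bpifa2, the parotid secretory protein gene, had 3.17 to 4.05 TPM in cKO and 2.27 to 4.34 TPM in WT (0.14, adjusted p = 0.930). Bpifb1 had 14.1 to 16.99 TPM in cKO and 13.9 to 15.5 TPM in WT (0.01, adjusted p = 0.994). The fourth, Bpifb2, had 7.71 to 13.0 TPM in cKO and 7.98 to 11.7 TPM in WT (0.17, adjusted p = 0.883).

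Secretoglobins are small proteins of club and gland cells. Scgb1a1, the club cell secretory protein gene, had 68.6, 86.6 and 97.9 TPM in cKO and 66.8, 110.0 and 80.9 TPM in WT. The groups overlapped fully, with WT holding both the lowest and the highest library (log2 fold change −0.05, SE 0.198, adjusted p = 0.968). Scgb3a1 had 4.97 to 6.43 TPM in cKO and 4.82 to 5.98 TPM in WT (0.12, adjusted p = 0.947).

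Pigr, the receptor that carries immunoglobulin A to the lumen, had 214, 218 and 204 CPM in cKO and 174, 210.5 and 181 CPM in WT. Only WT library 2 reached the cKO range (log2 fold change 0.17, SE 0.0864, adjusted p = 0.629). Dmbt1, a mucosal glycoprotein that binds bacteria, had 17.6 to 21.4 TPM in cKO and 15.6 to 18.7 TPM in WT (0.10, adjusted p = 0.859).

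Ltf, which encodes the iron-binding protein lactoferrin, had 17.8 to 25.7 TPM in cKO and 20.2 to 25.6 TPM in WT (−0.03, adjusted p = 0.978). Lactoferrin is also stored in neutrophil granules, and 8 of 9 neutrophil markers passed the filter. Their summed level was 722 to 1286 TPM in cKO and 981 to 1134 TPM in WT. Elane, the neutrophil elastase gene, was near 0, at 0.15 to 0.27 TPM in cKO and 0.14 to 0.38 TPM in WT. Nearly all of the sum thus came from other markers of the list, and Elane does not stand for them. The part of neutrophil transcripts in the Ltf level was not tested.

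Aquaporins are water channels of glands and surface epithelium. Aqp5, the apical channel of salivary and airway glands, had 6.37, 7.11 and 5.00 CPM in cKO and 4.05, 3.85 and 5.01 CPM in WT. Library 3 of each group had nearly the same value, while the other cKO libraries lay above the WT ones (log2 fold change 0.52, SE 0.191, adjusted p = 0.486). Aqp3, which also carries glycerol, had 140, 152 and 168 TPM in cKO and 121, 143 and 149 TPM in WT (0.13, SE 0.108, adjusted p = 0.8103), with overlapping groups.

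**Figure D3:**
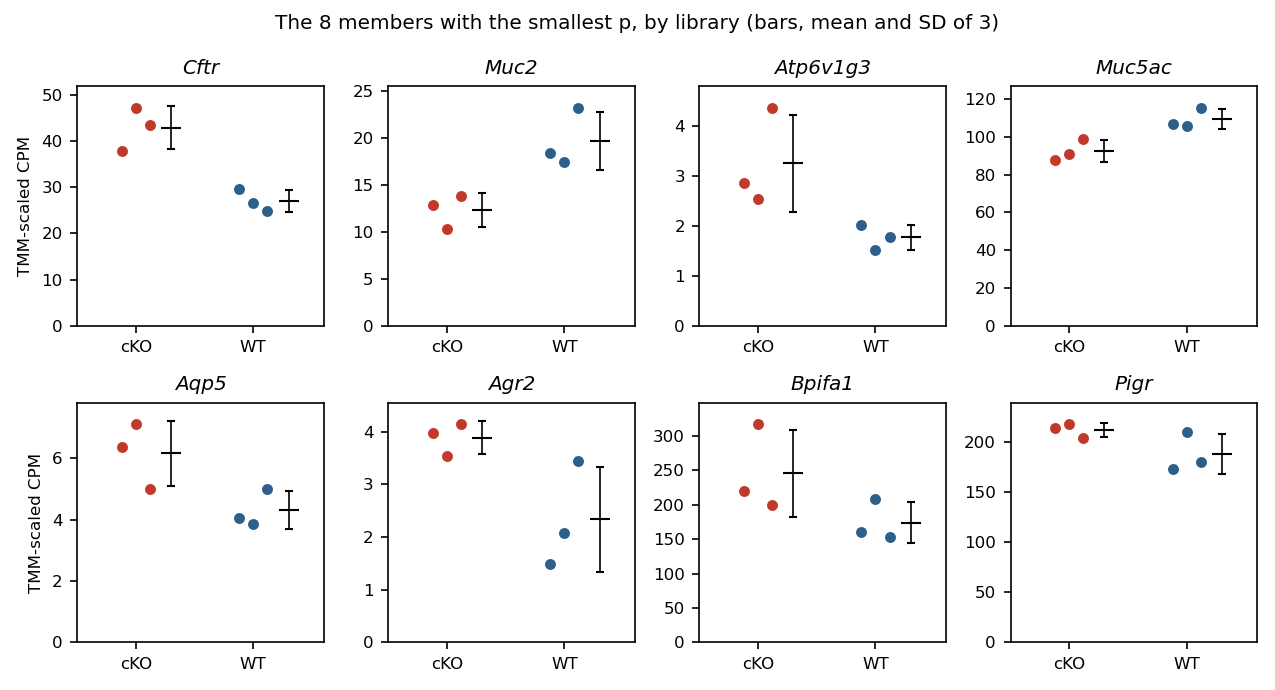
TMM-scaled CPM of the 8 members with the smallest p, 1 point per library, cKO in red and WT in blue, with the mean and SD of 3 libraries as black bars, on axes that start at 0. The groups are apart in Cftr, Muc2, Atp6v1g3, Muc5ac and Agr2 and overlap in Aqp5, Bpifa1 and Pigr.

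Of the ionocyte genes, Cftr had the smallest p of all 35 members. Cftr (ENSMUSG00000041301, chromosome 6, 18170687 to 18322768), the chloride and bicarbonate channel gene mutated in human cystic fibrosis, had 37.9, 47.2 and 43.4 CPM in cKO and 29.5, 26.5 and 24.8 CPM in WT. Every cKO library lay above every WT library, with means of 42.8 ± 4.66 and 26.9 ± 2.40 CPM (edgeR adjusted p = 0.0605, log2 fold change 0.67, SE 0.111). It ranked 23 of 28543 genes by p. Without cKO library 1, the lowest of the cKO libraries, it passed (0.75, adjusted p = 0.0491). Of its exon bases 1.66% overlap Gm15592, which had a mean of 29.3 counts, against 1791 to 2170 counts of Cftr in cKO and 1211 to 1362 in WT.

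The other channels and transporters had log2 fold changes near 0. Bsnd, which encodes barttin, the partner of ClC-K chloride channels, had 2.65, 2.81 and 3.03 TPM in cKO and 2.19, 3.63 and 2.46 TPM in WT (0.01, SE 0.232, adjusted p = 0.997). Of its exon bases 10.7% overlap AL954352.1, which had a mean of 33.3 counts. Bsnd itself had 150 to 186 counts in cKO and 120 to 215 in WT. Slc26a4, the gene of the anion exchanger pendrin, had 6.16, 7.95 and 9.46 TPM in cKO and 7.33, 9.69 and 6.55 TPM in WT (−0.02, SE 0.195, adjusted p = 0.989). Slc4a9, an anion exchanger gene, had 2.62, 4.58 and 4.07 TPM in cKO and 4.95, 3.11 and 3.41 TPM in WT (−0.04, SE 0.214, adjusted p = 0.978). In each of these genes the cKO and WT libraries overlapped, and WT library 2 was the highest of the 6 for Bsnd and Slc26a4 but the lowest of the WT libraries for Slc4a9.

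Foxi2, a forkhead factor gene, was also highest in WT library 2, with 3.58, 3.33 and 4.07 TPM in cKO and 2.88, 5.48 and 3.56 TPM in WT (log2 fold change −0.15, SE 0.243, adjusted p = 0.917). Ascl3, a bHLH factor gene of ionocytes and salivary ducts, had 25, 48 and 18 counts in cKO and 15, 19 and 40 counts in WT. These counts were the lowest of the members and did not separate the groups (0.31, SE 0.519, adjusted p = 0.917).

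V-ATPase subunits restricted to acid-secreting cells replace general subunits of the proton pump. Atp6v1g3 (ENSMUSG00000026394, chromosome 1, 138273738 to 138289462) had 135, 117 and 218 counts in cKO and 93, 72 and 87 counts in WT, or 2.86, 2.54 and 4.36 CPM in cKO and 2.02, 1.52 and 1.78 CPM in WT. The groups did not overlap, and cKO library 3 stood above the rest (log2 fold change 0.88, SE 0.257, adjusted p = 0.353). Without that library the log2 fold change was 0.61. Atp6v1b1 had 5.24 to 6.66 TPM in cKO and 5.03 to 5.87 TPM in WT (0.05, adjusted p = 0.963). Atp6v0d2, a subunit also made by osteoclasts and macrophages, had 2.94 to 4.53 TPM in cKO and 3.49 to 3.92 TPM in WT (−0.08, adjusted p = 0.955). The summed level of 9 macrophage and osteoclast markers was 154 to 209 TPM in cKO and 152 to 213 TPM in WT, and its part in the Atp6v0d2 level was not tested.

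**Figure D4:**
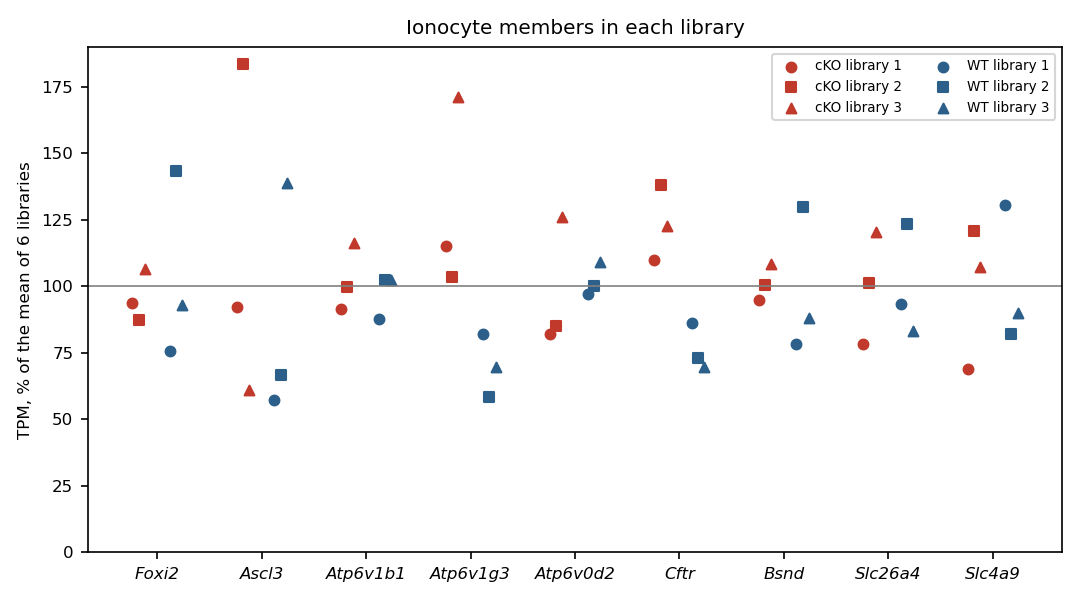
TPM of the 9 ionocyte members in each library, as a percent of that gene's mean over the 6 libraries, cKO in red left of WT in blue, with 1 marker shape per library number. Cftr and Atp6v1g3 have all cKO libraries above all WT libraries, while WT library 2 is the highest point for Foxi2, Bsnd and Slc26a4.

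Summed by role, the 9 ionocyte members had 39.7, 48.2 and 50.7 TPM in cKO and 38.3, 41.9 and 37.6 TPM in WT. The 15 goblet and mucin members had 2091, 2339 and 2003 TPM in cKO and 2165, 2105 and 2056 TPM in WT, a sum made mostly of Fcgbp. The 11 secretory and aquaporin members had 738, 927 and 754 TPM in cKO and 602, 742 and 635 TPM in WT. In each of these sums the groups overlapped. Among smaller roles, the TPM sums of the groups did not overlap for gel-forming mucins, at 24.7 to 26.6 TPM in cKO and 28.3 to 33.0 TPM in WT. They were also apart for the goblet regulators with Agr2, at 19.7 to 20.5 TPM in cKO and 13.7 to 19.2 TPM in WT, and for Ltf, Pigr and Dmbt1 together, at 157 to 165 TPM in cKO and 137 to 154 TPM in WT. The membrane mucins, made mostly of Muc1, had 169 to 170.02 TPM in cKO and 160.0 to 166 TPM in WT, also with no overlap. In the rest of the 12 roles the sums overlapped. These sums were compared in TPM only, with no share over all genes to set beside them. In CPM the groups overlapped for Muc1, and also for Pigr, the largest part of the sum with Ltf and Dmbt1.

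Markers of other cell types were read in the same libraries. Of 6 such lists, the summed level did not overlap between groups for red cells only, with 121 to 178 TPM over 7 genes in cKO and 190 to 207 TPM in WT. None of the 7 red cell genes passed the test in edgeR. Their log2 fold changes were below 0 in 6, and 2 (Hba-a2 and Hbb-bt) had an unadjusted p under 0.05. That is 28.6% of the 7, beside 8.51% of all genes tested. The lowest p belonged to Hba-a2, whose reads may be split with its close paralog Hba-a1, with 15.8, 10.7 and 18.3 CPM in cKO and 21.3, 21.5 and 25.7 CPM in WT (−0.61, SE 0.175, adjusted p = 0.341). No marker of these lists was at 0 in all libraries. The other lists were thymocytes, B and plasma cells, fibroblasts and endothelium, neutrophils, and macrophages and osteoclasts. An unadjusted p under 0.05 was met by 22.2% of 9 fibroblast and endothelial markers and 12.5% of 8 B and plasma cell markers. In the thymocyte, neutrophil, and macrophage and osteoclast lists no marker met it. In CPM the groups did not overlap in 28.6% of the red cell and 25.0% of the B and plasma cell markers, beside 14.4% of all genes tested. Whether red cell transcripts have a part in the values of the members was not tested.

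Other genes of the same programmes were read from lists by role. Of 99 further genes, 97 matched a symbol and 96 passed the filter on low counts, Emcn being the one that did not. None passed the adjusted threshold, as for the members (0.0596% of all genes did). At an unadjusted p under 0.05 there were 13 with positive and 1 with negative log2 fold changes, 14.6% of the 96 beside 8.51% of all genes. DESeq2 called 3 of them, beside 0.887% of the genes it tested, and limma-voom called none. The median log2 fold changes were 0.09 for 25 mucin and goblet genes, 0.04 for 28 airway and gland genes, 0.01 for 27 ionocyte genes and 0.07 for 16 general V-ATPase subunits. The summed levels of the groups did not overlap for the airway and gland list, at 4659 to 5290 TPM in cKO and 3618 to 4257 TPM in WT, whereas the sums of the secretory and aquaporin members did. They were also apart for the general V-ATPase subunits, at 1462 to 1518 TPM in cKO and 1394 to 1457 TPM in WT. None of these sums was compared on the TMM scale used for CPM, on which the groups of Muc1, apart in TPM, overlapped. The sums overlapped for the mucin and goblet list, at 474 to 488 TPM in cKO and 422 to 481 TPM in WT, and for the ionocyte list, at 348 to 373 TPM in cKO and 328 to 365 TPM in WT.

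In the mucin and goblet list, the smallest p belonged to Muc13, Muc19 and Tspan8. The membrane mucin gene Muc13 had 139 to 152 CPM in cKO and 100.1 to 113 CPM in WT (log2 fold change 0.42, SE 0.0815, adjusted p = 0.142). Muc19, a gel-forming mucin gene of salivary glands, had 5.52, 7.98 and 7.84 CPM in cKO and 12.1, 10.4 and 13.9 CPM in WT, with no overlap (−0.76, SE 0.175, adjusted p = 0.210). Tspan8, a tetraspanin gene, had 30.3 to 33.8 CPM in cKO and 20.4 to 29.6 CPM in WT (0.32, SE 0.131, adjusted p = 0.537). Muc6, the gel-forming mucin gene of gastric glands, had 10.2 to 12.2 CPM in cKO and 10.5 to 14.5 CPM in WT (−0.18, SE 0.149, adjusted p = 0.794), and was named after its values were seen.

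Among airway and gland genes, Reg3g, an antibacterial lectin gene, had 1195, 1370 and 1054 CPM in cKO and 723, 937 and 784 CPM in WT. The groups did not overlap (log2 fold change 0.57, SE 0.112, adjusted p = 0.147). Lyz1, a lysozyme gene of Paneth cells, had 514 to 683 CPM in cKO and 430 to 515 CPM in WT (0.40, SE 0.108, adjusted p = 0.310). Tmprss2, a membrane serine protease gene, had 107 to 126 CPM in cKO and 79.7 to 99.01 CPM in WT (0.37, SE 0.0996, adjusted p = 0.310).

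Among the other ionocyte genes, Tfcp2l1, a transcription factor gene of kidney collecting ducts, had 148 to 158 CPM in cKO and 114 to 134 CPM in WT (log2 fold change 0.27, SE 0.0833, adjusted p = 0.397). Kcnma1, a potassium channel gene, had 48.7 to 54.5 CPM in cKO and 40.5 to 46.0 CPM in WT (0.25, SE 0.0919, adjusted p = 0.470). Slc26a9, an anion transporter gene, had 26.8 to 37.1 CPM in cKO and 25.2 to 27.9 CPM in WT (0.29, SE 0.124, adjusted p = 0.558). Of the general V-ATPase subunits, Atp6ap1, Atp6v1d and Atp6v0a2 had the smallest p, with log2 fold changes of 0.16, 0.18 and 0.14 and adjusted p of 0.586 to 0.701.

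**Figure D5:**
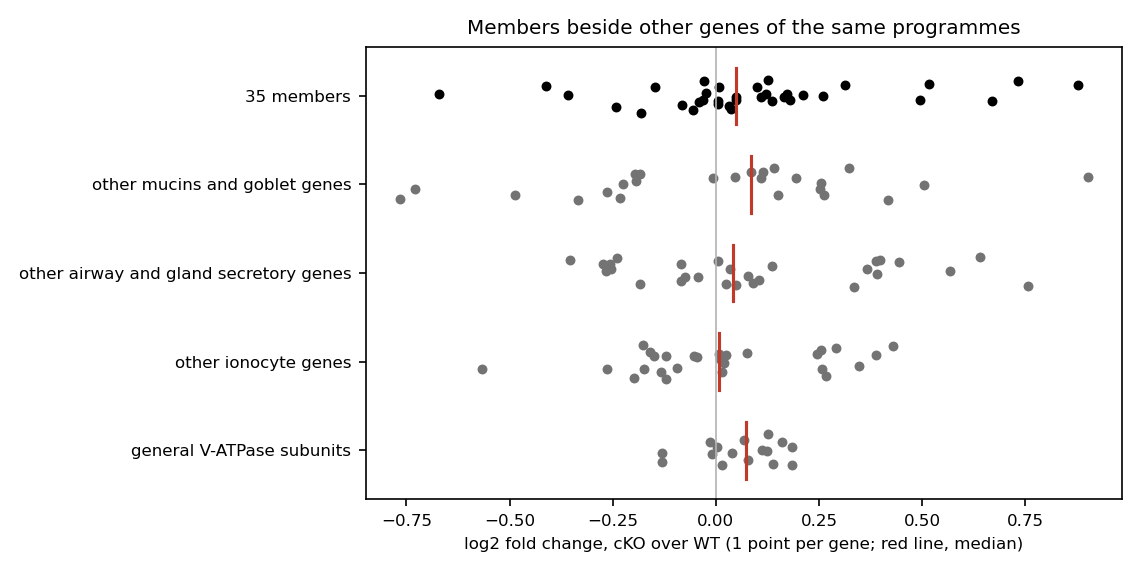
Log2 fold changes, cKO over WT, of the 35 members and of 4 lists of other genes of the same programmes, 1 point per gene with vertical scatter for display only, and the median as a red line. The medians lie between 0.01 and 0.09, and the general V-ATPase subunits spread less than the other lists.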

How the data were processed

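Whole-number counts per gene were deposited for each library. The submitters' processing notes name TopHat2 2.1.1, SAMtools 1.9, Subread 2.0.1 and the build mm10. Per the file headers, featureCounts 2.0.0 summed exons by gene on Ensembl release 99 (GRCm38), ignored strand although the kit in the labels is stranded, counted a read over several genes for each, and had neither the option for read pairs nor that for reads with several alignments. The authors' series table holds the same counts for 51810 of 55385 genes, and TPM that equal length-scaled counts of each library brought to 1 common sum (largest deviation 0.000834% among values above 1). Its 1 other column of per-sample values was not used.

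Counts were tested with edgeR 4.0.16 in R 4.3.3 (TMM scaling, filterByExpr, robust quasi-likelihood F test), with Benjamini-Hochberg adjustment over 28543 genes. An SE was derived from each log2 fold change and its F statistic. DESeq2 1.42.0 and limma 3.58.1 were alternatives. The main edgeR fit was tested on simulated counts, and the alternative fits were not. A floor of 3 counts is 0.0598 to 0.0660 CPM, which covers counting error only. The chi-square per gene between libraries was 13.4 to 27.8, more than counting error alone, and all 6 were kept as separate samples. That value cannot show whether the libraries came from separate mice. The 35 members and the other lists were chosen with earlier results of these data known. Values in every library are given for the 12 members with the smallest p, the 5 with the highest TPM, the lowest in counts and any called with the replicate number as a block. They are also given for Scgb1a1, Foxi2, Bsnd, Slc26a4 and Slc4a9, chosen outside this rule after their values were seen. For each other list the 3 genes with the smallest p are named. Scaling, filters, tool, table, unit and left-out libraries were varied.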

Additional observations from a re-analysis of the deposited data

How the results depend on the processing

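Over all genes, 17 were called. The count was 203 (0.711%) with the replicate number as a block. It was 160 of 46386 genes with no filter on low counts and 180 (0.887%) with DESeq2. Without robust estimation 6 were called, and 1 was called by limma on log2(TPM + 1) or on log2(TPM + 0.1). Leaving out 1 library gave 6 to 16, with 7 without cKO library 2, 7 without WT library 1 and 6 without WT library 3. Of the members, 0 were called, against 3 with the block (Cftr and Bpifa1 higher, Muc2 lower), 2 with no filter and 2 with DESeq2 (Cftr and Muc2 both times), and 0 to 1 with a library left out. The adjusted p with the block were 0.00482 for Cftr, 0.00439 for Bpifa1 and 0.0102 for Muc2; over all fits they ran up to 0.393, 0.958 and 0.817. Of the other 96 genes 0 were called, against 5 with the block (Lyz1, Muc13, Reg3g and Wfdc2 higher, Muc19 lower), 4 with no filter, 3 with DESeq2 and 0 to 1 with a library left out (Retnlb, lower, without cKO library 3). Of the red cell markers 1 was called with the block (Hba-a2, lower, adjusted p = 0.0221). The cause of these differences was not tested. Libraries with the same number had correlated deviations from their group means of 0.113, 0.0544 and 0.0755, each the highest for its libraries, which is a hint from the data and not a pairing in the design. In all 17 other fits 18 of the 35 members kept the sign of their log2 fold change, Cftr and Muc2 among them, and 32 were called in none. With 15 to 48 counts, Ascl3 could show only large differences.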
